A study of Mus musculus with 9 samples.

Results

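The 10 genes described here, Ctss, Csf1r, C1qa, C1qb, C1qc, Aif1, Cx3cr1, Tyrobp, Fcer1g and Trem2, are genes by which microglia are commonly recognised. They were taken by symbol from a table of 48526 Ensembl gene identifiers, and each symbol matched 1 identifier. The table holds RNA sequencing of the mouse medial ganglionic eminence (MGE), a ventral forebrain region that produces cortical interneurons, at embryonic day 14.5, in 4 control and 5 Ctnnb1 knockout libraries. All 9 libraries are from C57BL/6 mice with the Nkx2.1-cre and Rosa26-YFP alleles, so the controls also carry Cre recombinase and the fluorescent reporter. Control replicates 1, 2 and 3 carry no floxed Ctnnb1 allele, control replicate 4 is Ctnnb1fl/wt, with 1 floxed allele, and knockout replicates 1 to 5 are Ctnnb1fl/fl, with 2. The Cre is placed under Nkx2-1 regulation, so deletion is limited to cells with a history of that driver, and other cells in the dissected region keep their alleles. The labels do not say whether a library came from 1 embryo or from pooled embryos, so a p-value here reflects the spread among the 9 libraries, part of which may be technical.

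Microglia are the resident macrophages of the brain. They arise from yolk sac progenitors and enter the embryonic forebrain from outside the neural lineage, where they clear dying cells and contact developing axons and interneurons. Their survival depends on signalling through the CSF1 receptor. They secrete C1q, the recognition component of the classical complement pathway, sense the neuronal chemokine fractalkine through CX3CR1, and take up debris with the help of TREM2, which signals through the adaptor TYROBP. Macrophages at the brain's borders, in the meninges and around vessels, share most of these genes.

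The deposited unit is the normalized count, a read count divided by 1 size factor per library. In these libraries 1 normalized count was close to 1 read, and totals ran from 5120585 to 5569444 reads. Ctnnb1, which encodes beta-catenin, was at 69.1% of the control mean in the knockouts (exact two-sided permutation p = 0.00794, the smallest the 126 splits allow, n = 4 and 5). Nkx2-1, which marks the region, stood at 4389 to 6698 in the controls and at 3466 to 5304 in the knockouts, so MGE transcripts were present in all 9. Their amount was uneven: the 9 genes of the MGE marker list summed to 19502 in control replicate 1, the lowest library. The other controls held 25045 to 32604 and the knockouts 29142 to 36816. Control replicate 1 and knockout replicate 5 stood apart in markers of meningeal and mesenchymal tissue and of border-associated macrophages, as detailed below, and results that rest on them are given with and without them.

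The promoter of Ctss is shown first, because Ctss was the one microglial gene whose difference between the groups passed the test with all 9 libraries. RefSeq promoter sequences (GRCm38.p6, the mm10 assembly) were at hand for 7 of the 10 genes: Fcer1g, Ctss, C1qb, C1qc, Cx3cr1, Aif1 and Trem2. The Ctss sequence below, chr3:95526536-95526785 on the plus strand, covers the 250 bases before the annotated start. Its capitals mark 2 GAAA blocks and the 2 bases between them, a form of the element bound by interferon regulatory factors.
Ctss: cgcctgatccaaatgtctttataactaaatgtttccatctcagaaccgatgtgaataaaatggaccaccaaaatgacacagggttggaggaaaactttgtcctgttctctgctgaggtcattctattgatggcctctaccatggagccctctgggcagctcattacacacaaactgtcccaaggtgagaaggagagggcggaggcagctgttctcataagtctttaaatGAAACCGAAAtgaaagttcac

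A second motif searched was GAGGAAGT, a form of the element bound by PU.1 (encoded by Spi1), the lineage factor of macrophages. Both motifs were searched on both strands in windows of 300 bases, 250 before the start and 50 after it. GAGGAAGT, or its reverse complement ACTTCCTC, was present for 2 of the 7 genes and in 3.20% of 32841 windows of all genes. The paired GAAA motif (GAAA, any 2 bases, GAAA, or its reverse complement) was present for 2 of the 7 and in 3.44% of all windows. The 30 bases around each further match follow, with the match in capitals: Ctss at chr3:95526773-95526802 on the plus strand, C1qc at chr4:136893091-136893120 and Aif1 at chr17:35176191-35176220, both on the minus strand.
Ctss: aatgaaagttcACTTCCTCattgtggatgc
C1qc: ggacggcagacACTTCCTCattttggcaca
Aif1: tttttaaaaaaGAAAAAGAAAagagaaaac
In Ctss the GAGGAAGT match spans the start, from 2 bases before it to base 6 after it, and the paired GAAA match, which overlaps no GAGGAAGT match, lies 21 to 12 bases before it. In C1qc the match lies 195 to 188 bases before the start, and in Aif1 157 to 148. A match describes the letters only and shows neither binding nor a cause.

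All 10 genes were detected in every library, at low levels. Together they made up 46.0 to 110 CPM of a library's summed normalized counts. Their summed level was 567 normalized counts in control replicate 1 and 369, 386 and 390 in control replicates 2, 3 and 4. In the knockouts it was 257, 276, 253, 299 and 483 in replicates 1 to 5. Control replicate 1 was the highest control and knockout replicate 5 the highest knockout, and knockout replicate 5 lay above 3 of the 4 controls. The mean sum in the knockouts was 73.3% of that in the controls with all libraries. Without control replicate 1 and knockout replicate 5 it was 71.1%, with controls at 369 to 390 and knockouts at 253 to 299. These ranges do not overlap, but knockout replicate 5 was the only knockout that reached the controls. Leaving it out, a choice made after the values were seen, fixes that separation in advance. In bulk tissue, fewer microglia, less RNA per microglia and a different amount of other tissue in the dissection cannot be told apart, and none was tested.

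**Figure D1:**
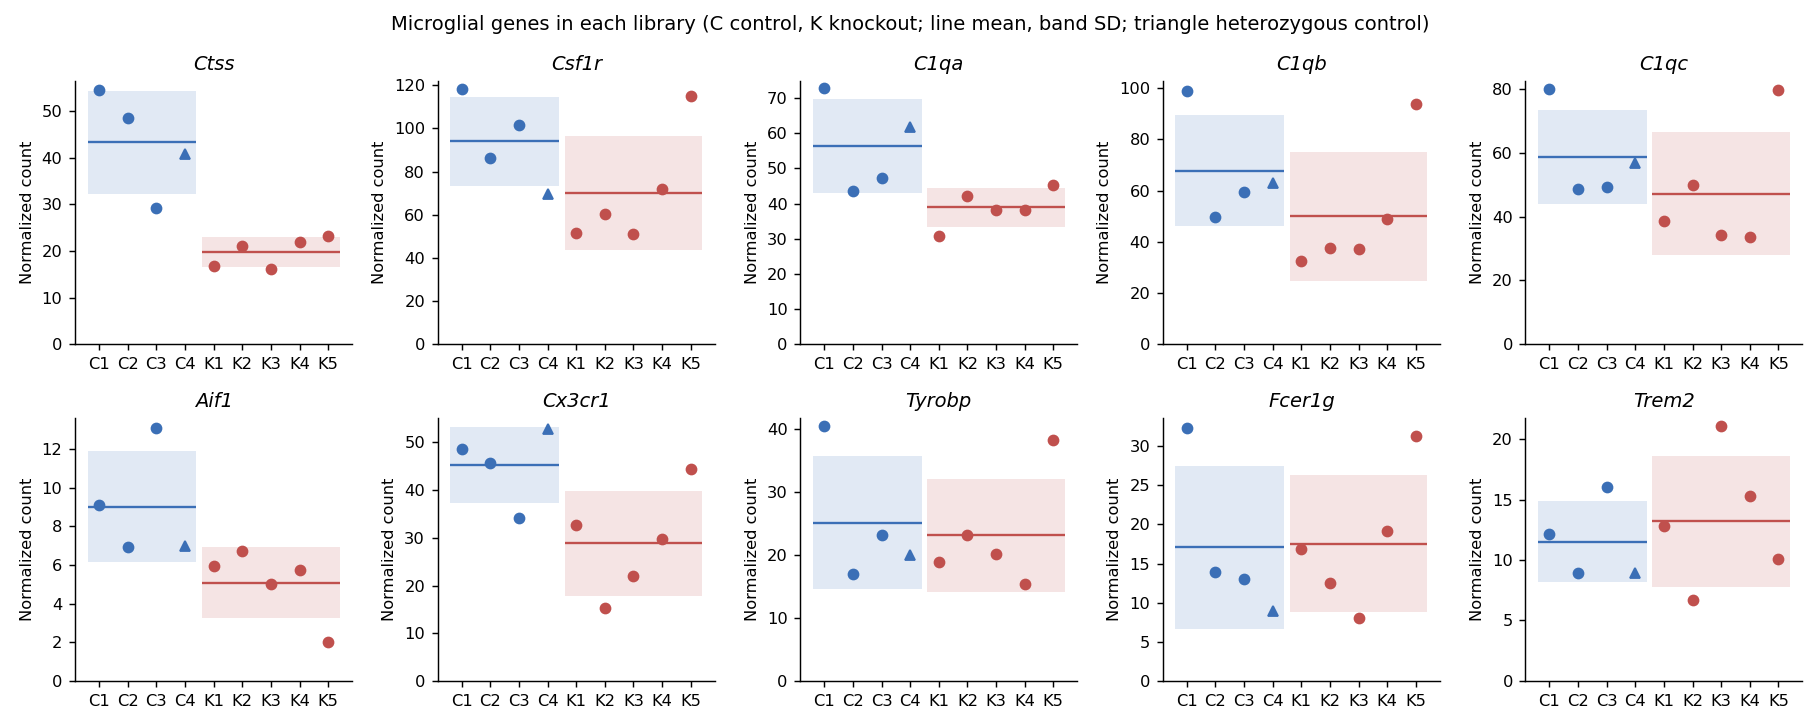
Normalized count of each of the 10 microglial genes in each library (C, control; K, knockout; the triangle is the heterozygous control replicate 4), with the group mean as a line and the SD as a band. Ctss and Aif1 are the 2 genes for which every knockout lies below every control. Of the 13780 genes tested, which do not include Aif1, 14.6% show this separation. For Ctss, Csf1r, C1qa, C1qb, C1qc, Tyrobp and Fcer1g, control replicate 1 and knockout replicate 5 are the highest points of their groups.

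Differences were tested in a fit over all 13780 genes whose mean over the 9 libraries reached 10 normalized counts, with limma on log2(normalized count + 1) and Benjamini-Hochberg adjustment. Of the 10 microglial genes, 9 passed that filter and Aif1, at a mean of 6.84, did not. Of the 9, 1 was lower in knockout, Ctss, and 0 were higher. In the same fit 17.3% of all genes tested were lower and 17.2% higher, so the share of microglial genes called is no larger than the background. The median log2 fold change of the 9 was -0.46, beside -0.01 over all genes tested, and 7 of the 9 values were below 0 against 51.0% of all genes. Most of the 9 deviated together across libraries, as given below, so they are not 9 separate observations. Without control replicate 1 all 9 fold changes were higher, and that of Tyrobp was above 0 (0.14). At an unadjusted limma p under 0.05 with all 9 libraries, C1qa and Cx3cr1 would be added to Ctss. More of all genes would pass there too, and that share was not counted, so these additions carry no weight.

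Ctss encodes cathepsin S, a lysosomal cysteine protease that macrophages also secrete and that processes antigen and matrix proteins. The gene (chromosome 3, 95526786 to 95556403, mm10, protein-coding) was at 54.6, 48.7, 29.1 and 40.9 normalized counts in control replicates 1 to 4. In knockout replicates 1 to 5 it was at 16.8, 21.2, 16.05, 22.01 and 23.2. Every knockout lay below every control, a separation in that direction shown by 14.6% of the genes tested. The mean fell from 43.3 ± 10.99 (SD, n = 4) to 19.8 ± 3.20 (SD, n = 5), which is 45.8% of the control level. The log2 fold change was -1.07 (SE 0.227, 95% interval -1.55 to -0.58), with adjusted p = 0.00269 by limma. Read counts were small, and their exact 95% Poisson intervals, which cover counting error only, ran from 19.4 to 41.7 for the 29 reads of the lowest control and from 14.6 to 34.5 for the 23 reads of the highest knockout. Ctss was lower in knockout in each of 18 alternative fits in which it was tested, with adjusted p from 0.000585 to 0.0483. The annotated extent of Ctss overlaps a processed pseudogene, Hmgb1-ps5, on the same strand. How reads in any shared stretch were assigned is not given in the sources used here.

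Cx3cr1, the fractalkine receptor by which microglia sense neurons, had the next largest fold change among the 9 tested genes. It stood at 48.5, 45.7, 34.2 and 52.8 in the controls and at 32.6, 15.4, 22.1, 29.7 and 44.3 in the knockouts. The first 4 knockouts were below every control, and knockout replicate 5 lay within the control range. The log2 fold change was -0.70 (SE 0.267, 95% interval -1.27 to -0.13) and did not pass the threshold (limma, adjusted p = 0.0546). It passed without knockout replicate 5 (-0.87, adjusted p = 0.0164), and also without both control replicate 1 and knockout replicate 5 (-0.83, adjusted p = 0.0347). Knockout replicate 5 was the highest knockout for Cx3cr1, so leaving it out moves the fold change down in advance. The annotated extent of Cx3cr1 overlaps several other genes, Wdr48, Gorasp1, Ttc21a, Csrnp1 and Xirp1 among them, and how reads in shared stretches were assigned is not given in the sources used here.

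Csf1r, the receptor tyrosine kinase on which microglial survival depends, was at 118, 86.4, 101.5 and 69.8 in the controls and at 51.4, 60.6, 51.2, 71.8 and 115 in the knockouts. Knockout replicates 1, 2 and 3 were below every control, whereas knockout replicate 5 exceeded 3 of them. The log2 fold change was -0.46 (SE 0.230, 95% interval -0.96 to 0.03; limma, adjusted p = 0.135). Without knockout replicate 5 it was -0.66 (adjusted p = 0.0149), and without control replicate 1 as well it was -0.54 (adjusted p = 0.0451). Knockout replicate 5 was the highest knockout for Csf1r, which fixes the direction of the first shift. The opposite strand holds Hmgxb3, which overlaps Csf1r.

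The 3 C1q genes encode the A, B and C chains that assemble into 1 molecule, and they lie side by side on chromosome 4, between 136880129 and 136898803. C1qa was at 72.8, 43.7, 47.2 and 61.8 in the controls and at 30.7, 42.3, 38.1, 38.3 and 45.3 in the knockouts. For C1qa, 4 of 5 knockouts were below the lowest control and the groups overlapped through knockout replicate 5. C1qb was at 99.1, 49.7, 59.3 and 62.8 in the controls and at 32.6, 37.5, 37.1, 48.8 and 93.7 in the knockouts. C1qc was at 79.8, 48.7, 49.2 and 56.8, and at 38.6, 49.9995, 34.1, 33.5 and 79.6. For both, knockout replicate 5 was near control replicate 1 and above the other 3 controls. The other 4 knockouts lay below every control for C1qb, and 3 of them did for C1qc. The log2 fold changes were -0.50 for C1qa (limma, adjusted p = 0.0555), -0.50 for C1qb (0.207) and -0.36 for C1qc (0.284), and none passed. Without knockout replicate 5, C1qa (-0.56, adjusted p = 0.0485) and C1qb (-0.75, 0.0181) passed and C1qc did not (-0.56, 0.0520). That library was the highest knockout for all 3, so the shift away from the controls was fixed in advance. Without control replicate 1 and knockout replicate 5 none of the 3 passed, with adjusted p of 0.140, 0.0553 and 0.157. Without control replicate 1 alone the values were smaller, -0.37 for C1qa, -0.30 for C1qb and -0.20 for C1qc (adjusted p = 0.174, 0.475 and 0.592). Against control replicates 2 and 3 only they were -0.23, -0.23 and -0.13 (adjusted p = 0.505, 0.689 and 0.803).

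Tyrobp, Fcer1g and Trem2 belong to the receptor and adaptor module of microglia: TYROBP and FCER1G are signalling adaptors with an activation motif, and TREM2 is a receptor for lipids and cell debris. Tyrobp was at 40.4, 16.9, 23.1 and 19.9 in the controls and at 18.8, 23.1, 20.1, 15.3 and 38.3 in the knockouts. Fcer1g was at 32.3, 13.9, 13.1 and 8.97, and at 16.8, 12.5, 8.02, 19.1 and 31.2. In both genes control replicate 1 and knockout replicate 5 were the 2 highest libraries and the other 7 were intermixed. Trem2 was at 12.1, 8.94, 16.1 and 8.97 in the controls and at 12.9, 6.73, 21.1, 15.3 and 10.1 in the knockouts, with no separation of the groups. The log2 fold changes were -0.10 for Tyrobp (95% interval -0.75 to 0.54), 0.06 for Fcer1g (-0.79 to 0.91) and 0.13 for Trem2 (-0.60 to 0.86). Adjusted p values by limma were 0.812, 0.917 and 0.793. Each interval holds 0, and the direction of each gene turned when single libraries were left out.

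Aif1, which encodes the actin-binding protein IBA1 of microglial processes, was at 9.10, 6.95, 13.1 and 6.98 in the controls and at 5.93, 6.73, 5.02, 5.74 and 2.02 in the knockouts. Every knockout was below every control, but by as little as 6.73 against 6.95. The same separation was shown by 14.6% of the genes tested, which do not include Aif1. The values 6.73 and 6.95 are both 7 reads, with an exact 95% Poisson interval of 2.81 to 14.4. In a fit with no filter on low values its log2 fold change was -0.75 (SE 0.422; limma, adjusted p = 0.289). Knockout replicate 5, which was high for Csf1r and C1qb, had the lowest Aif1, with 2 reads.

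**Figure D2:**
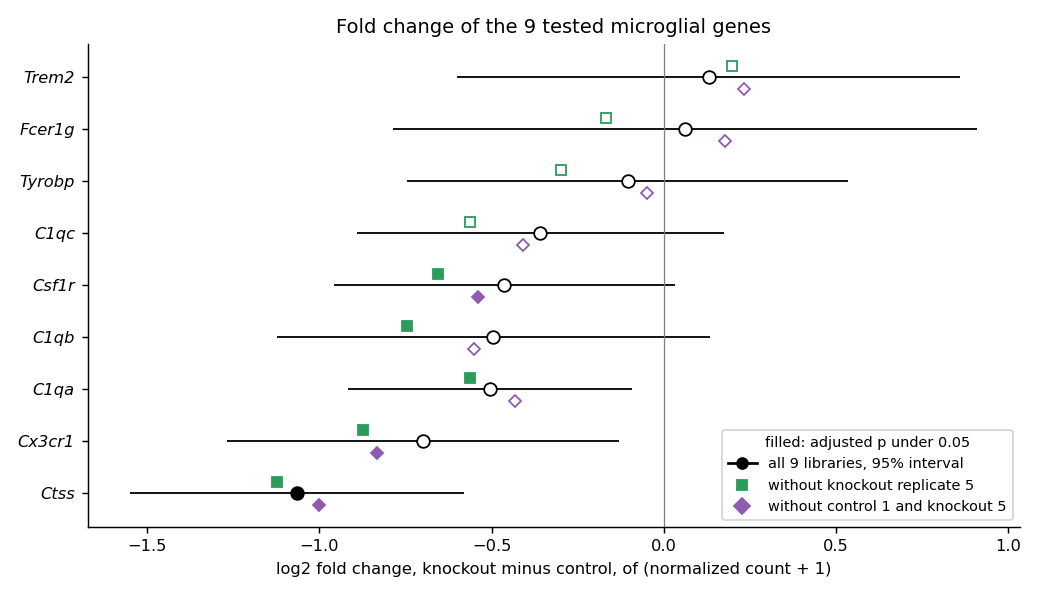
Log2 fold change, knockout minus control, of log2(normalized count + 1) for the 9 tested genes, with its 95% interval (circles), and the same without knockout replicate 5 (squares) or without control replicate 1 and knockout replicate 5 (diamonds); filled symbols have adjusted p under 0.05. Ctss, at -1.07, is filled in all 3 fits, Cx3cr1 and Csf1r are filled in the 2 fits that leave out knockout replicate 5, C1qa and C1qb in 1 of them, and Tyrobp, Fcer1g and Trem2 lie near 0.

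Leaving out knockout replicate 5 alone, 5 of the 9 genes were lower in knockout, Ctss, Csf1r, C1qa, C1qb and Cx3cr1, where 14.8% of all genes tested were lower. Knockout replicate 5 was the highest knockout for each of these 5 genes, so leaving it out lowers their knockout means in advance. The 5 of 9 is therefore no fair comparison with the 14.8%. Leaving out control replicate 1 as well, 3 were lower, Ctss, Csf1r and Cx3cr1, with 13.1% of all genes lower. With all 9 libraries and no filter on low values, 2 of the 10 were lower, Ctss and Cx3cr1, with 7.28% of all genes lower. The count of microglial genes called therefore moved between 1 and 5 with 1 library.

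For some of the genes, C1qb, Csf1r, C1qc and Fcer1g among them, the spread among replicates was set largely by the 2 high libraries. With counting error alone the variance of the counts would be about equal to their mean. In the knockouts the variance was 0.517 times the mean for Ctss, 0.653 times for Aif1 and 0.783 times for C1qa, and it was 12.7 times the mean for C1qb, 10.02 times for Csf1r and 7.91 times for C1qc. Without knockout replicate 5 the last 3 ratios were 1.22, 1.61 and 1.499. In the controls the ratio was highest for C1qb (6.91) and Fcer1g (6.35) and near 1 for Aif1 (0.916) and Trem2 (0.992), and without control replicate 1 it was 0.806 for C1qb and 0.582 for Fcer1g. Deviations from the group mean, on the log2 scale over the 9 libraries, correlated with the mean deviation of the other 9 genes at r = 0.91 for C1qb, 0.84 for Csf1r and Fcer1g, 0.80 for Tyrobp and 0.74 for C1qc. The value was 0.60 for C1qa, 0.46 for Ctss, 0.40 for Cx3cr1, -0.19 for Trem2 and -0.57 for Aif1. With the 3 collagen genes of the meningeal list, r was 0.65 for Ctss, 0.61 for Cx3cr1 and 0.91 for C1qc, above their values with the other microglial genes, and from -0.74 (Aif1) to 0.75 (Tyrobp) for the rest. These are descriptions over 9 libraries that share 2 high ones.

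Relative to the summed level of the 10 genes, Ctss took 10.2 ± 2.33% in the controls (SD, n = 4) and 6.54 ± 1.12% in the knockouts (SD, n = 5). The ranges, 7.55% to 13.2% and 4.80% to 7.67%, overlapped slightly. Csf1r took 22.1% and 21.99%, C1qa 13.2% and 12.9%, and C1qb 15.6% and 15.3%. Tyrobp took 5.70% and 7.33%, and Trem2 2.76% and 4.59%. These shares describe the make-up of the sum and were not tested.

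Per kilobase of annotated exon, C1qb was the highest of the 10 in control, at 62.2 ± 19.9 normalized counts per kb (SD, n = 4), followed by C1qa (54.2 ± 12.9), Tyrobp (37.6 ± 15.8), Ctss (31.9 ± 8.09) and C1qc (30.4 ± 7.57). Fcer1g (19.5), Csf1r (16.3), Cx3cr1 (10.1), Aif1 (5.89) and Trem2 (2.33) followed. In control the ranges of neighbouring genes in this order overlapped, except between Csf1r and Cx3cr1 and between Aif1 and Trem2. In knockout C1qb, C1qa and Tyrobp again came first (45.9, 37.4 and 34.6 per kb), Ctss came sixth at 14.6 ± 2.36 (SD, n = 5), and all neighbours overlapped. Exon lengths are the union over all annotated transcripts of a gene, 4.95 kb for Trem2 and 0.667 kb for Tyrobp, so a gene with rarely used long exons is understated.

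**Figure D3:**
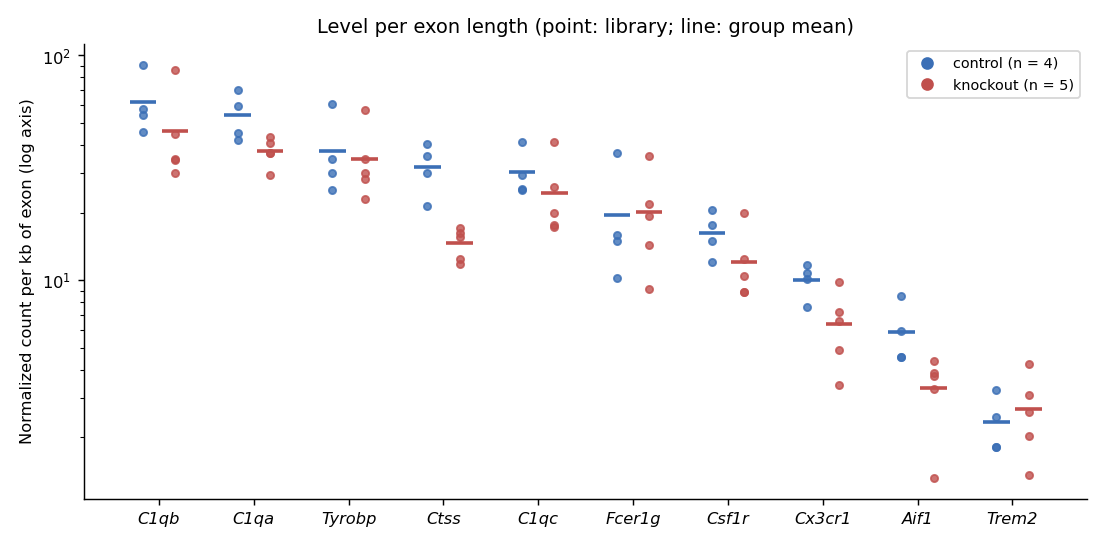
Normalized count per kb of annotated exon (log axis) for each gene and library, ordered by the control mean, with group means as lines (blue, control, n = 4; red, knockout, n = 5). C1qb leads in both groups, at 62.2 and 45.9 per kb, Ctss drops from 31.9 to 14.6, and Trem2 is lowest at 2.33 and 2.67.

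Markers of other tissue moved with the 2 high libraries. The 12 markers of border-associated macrophages summed to 671 normalized counts in control replicate 1 and 746 in knockout replicate 5, while control replicates 2 to 4 held 262 to 332 and knockout replicates 1 to 4 held 280 to 352. The mannose receptor gene Mrc1 was at 72.8 and 88.7 in those 2 libraries and at 20.1 to 36.1 in the other 7. F13a1, the clotting factor XIII subunit that these macrophages make, was at 101.1 and 72.5, and at 17.2 to 36.5 in the other 7. The 9 meningeal and mesenchymal markers summed to 2078 and 3540 in these libraries, while control replicates 2 to 4 held 484 to 1344 and knockout replicates 1 to 4 held 579 to 1174. None of these 12 and 9 genes was at 0 in every library. Control replicate 1 also held 5368 of the 10 cortical and choroid plexus markers combined, while the remaining controls held 167 to 207 and the knockouts 301 to 1053. Their part in the levels of the microglial genes was not tested.

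**Figure D4:**
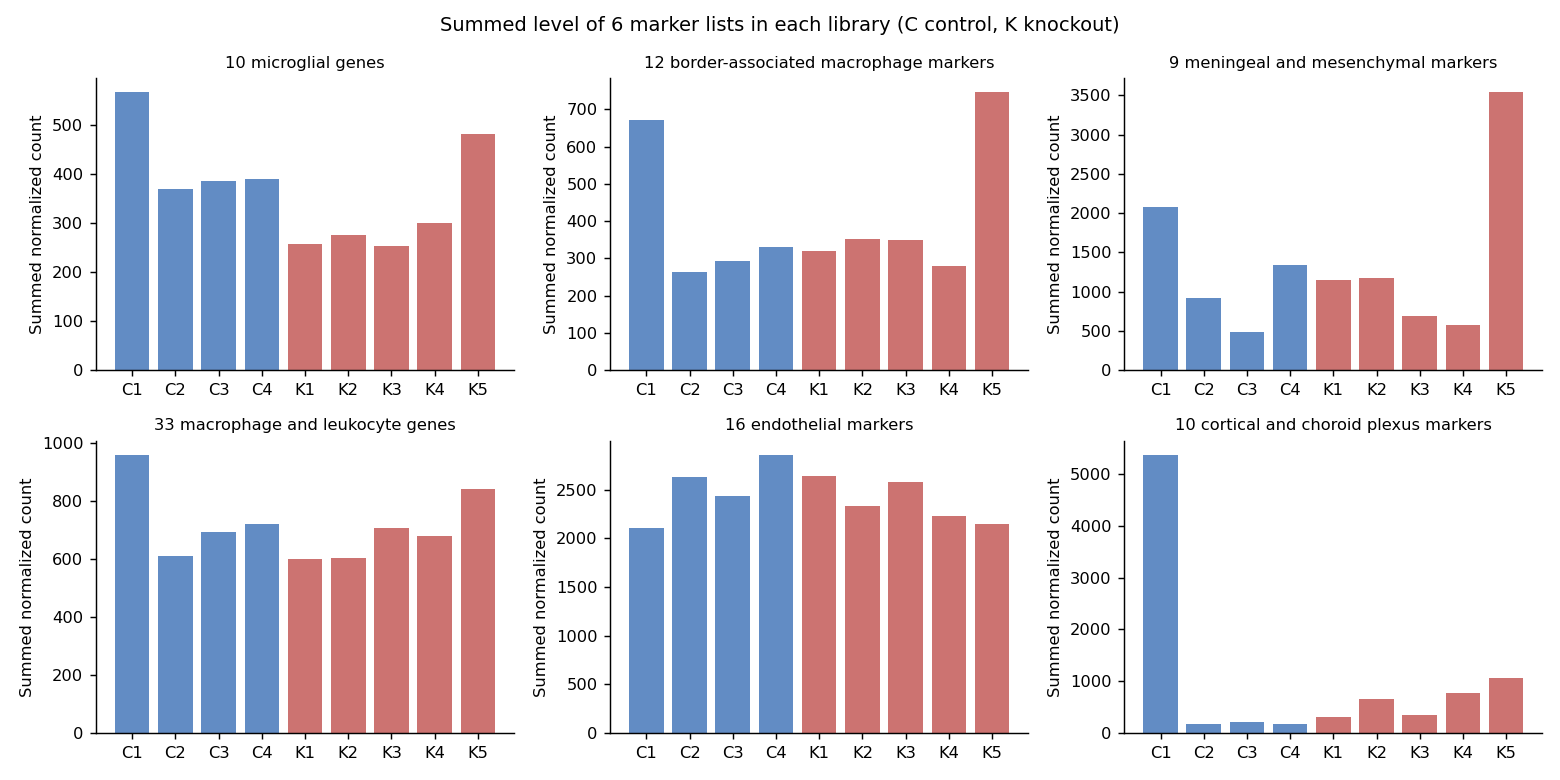
Summed normalized count of 6 marker lists in each library (C, control; K, knockout). The 10 microglial genes reach 567 in C1 and 483 in K5, the border-associated macrophage markers 671 and 746 and the meningeal and mesenchymal markers 2078 and 3540 in the same libraries, while the endothelial markers are lowest there among their groups (2103 and 2151).

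None of the 6 tested border-associated macrophage markers was called (median log2 fold change 0.08), nor was any of the 9 meningeal and mesenchymal markers (0.09). Stab1, a scavenger receptor, was at 159 ± 51.9 (SD, n = 4) and 176 ± 71.7 (SD, n = 5), and Dab2, an endocytic adaptor, at 115 ± 52.8 and 106 ± 42.8. Without control replicate 1 and knockout replicate 5, the border list again had 0 calls (median 0.18). The 12 monocyte and granulocyte markers were at or near 0: their sum was 6.06 to 19.9 in the controls and 7.65 to 16.1 in the knockouts, and none reached the filter. Of 15 tested endothelial markers 1 was lower, Mfsd2a, a lipid transporter of the blood-brain barrier (log2 fold change -0.75; limma, adjusted p = 0.00148), and 0 were higher. Of 9 pericyte markers 1 was lower, Notch3 (-0.63, adjusted p = 0.00828). Beside these endothelial and pericyte counts, 17.3% of all genes tested were lower. None of the 9 tested erythroid markers was called, though Hbb-y was lower without control replicate 2 (-1.87, adjusted p = 0.0376); Hbb-y, an embryonic globin gene, had 3518 ± 3612 (SD, n = 4) and 991 ± 287 (SD, n = 5), and Hbb-bs, an adult one, 1633 ± 1238 and 1955 ± 861. None of the 8 tested cortical and choroid plexus markers was called (median 0.25), with Ttr, a choroid plexus gene, at 701 ± 1326 and 217 ± 144, and Reln, the reelin gene, at 164.5 ± 225 and 175 ± 77.0. These control means rest on control replicate 1: without it Ttr was at 38.2 ± 29.5 and Reln at 52.2 ± 14.4 (SD, n = 3), both under the knockout means. In the fit without control replicate 1, 2 of the 8 were higher in knockout, where 15.2% of all genes tested were higher. The median of the 8 was 1.46, with Reln at 1.65 (limma, adjusted p = 0.00565) and Ttr at 2.41 (adjusted p = 0.0614). Of the 9 MGE markers 5 were higher and 1 lower, where 17.2% of all genes tested were higher and 17.3% lower. Among those called were Gad1, a GABA synthesis enzyme (1.23), the interneuron factor Lhx6 (0.84) and Dlx1 (0.48, not called against control replicates 2 and 3 only), and the progenitor factor Olig2 (-0.93).

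Of 16 genes characteristic of homeostatic microglia, 8 passed the filter, 3 were lower in knockout and 0 higher, where 17.3% of all genes tested were lower, with a median log2 fold change of -0.36. Among those called, Sall1, a transcription factor of microglia that neural progenitors also express, fell by 0.70 on the log2 scale (limma, adjusted p = 0.00535), from 685 ± 165 (SD, n = 4) to 416 ± 63.4 (SD, n = 5). Tgfbr1, a widely expressed TGF-beta receptor, fell by 0.38 (adjusted p = 0.00602). The microglial purinergic receptor gene P2ry12 stood at 21.2, 16.9, 17.1 and 4.98 in the controls and at 2.97 to 8.61 in the knockouts. The ranges overlapped through control replicate 4, and its log2 fold change of -0.97 did not pass (adjusted p = 0.0906). Tmem119 and Fcrls, also largely restricted to microglia in the brain, had log2 fold changes of 0.00 and -0.17 (adjusted p = 0.998 and 0.641).

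Among 33 macrophage and leukocyte genes, 17 passed the filter and none was called (median -0.11). Coro1a, an actin regulator of leukocytes that neurons also express, was at 148 ± 23.7 and 153 ± 16.03, and the actin bundler Lcp1 at 102 ± 29.4 and 99.2 ± 15.8. The pan-leukocyte gene Ptprc was at 1.003 to 9.07 over all libraries and the integrin gene Itgam at 0 to 4.95, both under the filter. The macrophage gene Adgre1 was at 7.95 to 23.2 in the controls and 5.93 to 17.1 in the knockouts.

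Of 11 transcription factors of the microglial lineage, 5 passed the filter and 3 were higher, a direction in which 17.2% of all genes tested were called. Among them were Mef2c (log2 fold change 2.77; limma, adjusted p = 2.53e-05) and Maf (2.44, adjusted p = 0.00102), both also known as factors of MGE-derived interneurons. Mef2c went from 50.8 ± 6.09 (SD, n = 4) to 367 ± 115 (SD, n = 5) and Maf from 308 ± 142 to 1596 ± 416. Irf8, a factor that macrophage development needs, was at 18.9 to 41.7 in the controls and at 12.04 to 22.96 in the knockouts (-0.59, adjusted p = 0.110). Ikzf1, a haematopoietic factor, was under the filter, at 20.2, 10.9, 7.03 and 11.96 in the controls and 2.01 to 5.74 in the knockouts. Spi1, which encodes PU.1, was also under it, at 2.99 to 12.1 and 4.81 to 25.2.

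Ligands and signalling partners of these receptors were measured in the same libraries. Of 17 such genes 13 passed the filter, 2 were higher and 0 lower (median 0.23), where 17.2% of all genes tested were higher. Cd200, a neuronal surface protein that restrains microglia, rose from 59.9 ± 28.96 to 142 ± 42.4 (log2 fold change 1.29; limma, adjusted p = 0.00801), and the kinase subunit Pik3cd by 1.11 (adjusted p = 0.000202). The CSF1R ligand Csf1 was at 53.1 ± 9.07 and 44.9 ± 6.83 (-0.23, adjusted p = 0.334), and the other ligand, Il34, was under the filter, at 0.996 to 7.08 and 3.01 to 6.92. The CX3CR1 ligand Cx3cl1 was at 75.1 ± 1.94 and 75.2 ± 16.3 (-0.03, adjusted p = 0.920).

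Complement genes other than C1q were sparse. Of 14, 5 passed the filter and 1 was higher, Cfp, the properdin gene of the alternative pathway, at 78.9 ± 13.2 and 106 ± 13.5 (0.43; limma, adjusted p = 0.0357). The call of Cfp was lost in 9 of 19 alternatives, among them those without control replicate 1 or 4, without knockout replicate 3, 4 or 5, with no filter and with the replicate block. C1s1 was at 0 in all 9 libraries, C1ra, the other C1 protease gene, reached at most 3.02 normalized counts, C4b at most 1.99 and C3 at most 11.1. Among 18 lysosomal genes all passed the filter, 2 were higher and 0 lower, and in most alternatives 1 was higher. Beside the complement and lysosomal counts with all 9 libraries, 17.2% of all genes tested were higher. Ctsf, a cathepsin gene like Ctss, rose from 44.4 ± 12.3 to 141 ± 28.9 (1.66, adjusted p = 7.42e-05), opposite to Ctss, and was called in 19 of 19 alternatives.

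Of 17 genes of phagocytic or disease-associated microglia, 8 passed the filter, 3 were lower (17.3% of all genes were) and 0 higher. Lpl, lipoprotein lipase, fell from 99.1 ± 23.03 to 52.6 ± 7.40 (log2 fold change -0.88; limma, adjusted p = 0.00204). Axl, a receptor for dying cells, fell by 0.47 (adjusted p = 0.00854) and the tetraspanin gene Cd63 by 0.42 (adjusted p = 0.0479). The Cd63 call was lost in 12 of 19 alternatives. Without control replicate 1, where it was at 164 against 106 to 112, its log2 fold change was -0.27 (adjusted p = 0.168). It was also lost without control replicate 3 or 4 and without knockout replicate 1, 2, 3 or 4. The Axl call was lost against control replicates 2 and 3 only (adjusted p = 0.0745). Neural cells also express these genes. Among 17 inflammatory and antigen presentation genes, 7 passed the filter and 1, B2m, was lower (-0.37; limma, adjusted p = 0.0231), where 17.3% of all genes tested were lower. The B2m call was lost in 5 of 19 alternatives, among them those without control replicate 1 (adjusted p = 0.0749), without control replicate 4 (0.0613) and with no filter (0.101). Tnf was at 0 in all 9 libraries and Il1b reached at most 2.98.

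**Figure D5:**
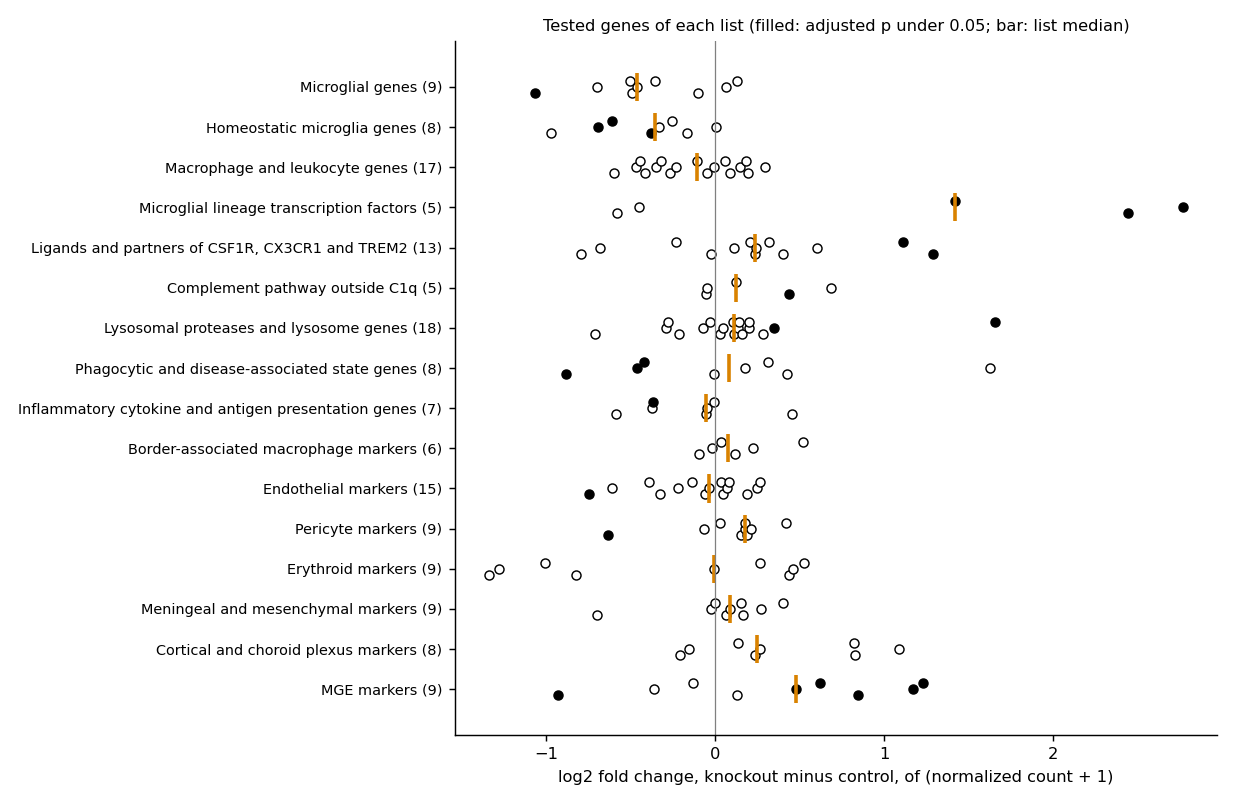
Log2 fold change, knockout minus control, of log2(normalized count + 1) for the tested genes of the microglial group and 15 further lists (number tested in brackets); filled points are genes called at 0.05, and each list's median is the orange bar. The 9 microglial genes have 1 filled point, Ctss, and a median of -0.46; the lineage factors have 3 filled points above 1.

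The 12 genes whose deviations from their group means were most like those of the microglial genes, among 10373 other genes with a mean of at least 50, were Cacna1e, Wwc1, Chst1, Selenop, Slc25a39, B4galnt1, Galnt17, Osbpl5, Ctsb, Lrrc75b, Ctsd and Cmc1, leaving out predicted and clone names. Their Pearson correlations over the 9 libraries were 0.93 to 0.97. Ctsb and Ctsd encode lysosomal proteases and are in the lysosomal list. The mean deviation of the 10 microglial genes was 0.42 in both control replicate 1 and knockout replicate 5 and between -0.20 and 0.03 in the other 7. Without those 2 libraries the 12 correlations ran from 0.39 to 0.98, with Ctsb at 0.56 and Ctsd at 0.52. Endothelial markers and MGE markers each had a median correlation of -0.65 with the microglial genes over the 9 libraries. The 6 cortical and choroid plexus markers with a mean of at least 50 had 0.82, and all genes ranked had -0.13. Medians were also high for border-associated macrophage markers (0.87, 2 genes), lysosomal genes (0.76) and erythroid markers (0.75). All of these correlations share the 2 high libraries.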

How the data were processed

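The 4 control and 5 knockout libraries were built with a NEBNext Ultra kit, with 500 ng of RNA going into each, per the labels' protocols. The deposited signal of a gene, which the authors scaled, is its read count over the size factor of its library. All values above 0 were within 0.01 of a whole multiple of 1 step per library, which gave the totals of 5120585 to 5569444 reads. The tools named with mm10 were HTSeq 0.9.1, TopHat2 2.1.1, DESeq2 and R 3.4.0, per the submitters' processing notes. What each did, the annotation release and the strand setting were not given in the sources used here. Without strand, reads in stretches shared by genes on opposite strands cannot be told apart. For genes that overlap on the same strand, such as Ctss and Hmgb1-ps5, strand would not separate shared stretches either.

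Symbols were matched for 48058 of 48526 identifiers. The test was limma 3.58.1 (statmod 1.5.0, R 4.3.3, trend and robust), two-sided, on log2(normalized count + 1) over genes whose mean reached 10. The threshold was 0.05 on the Benjamini-Hochberg adjusted p. It was tried on simulated counts in which all genes shared the same setting of spread and no library stood apart. That trial does not cover libraries such as control replicate 1 and knockout replicate 5. No count model was fitted. Gene positions and exon lengths are from GENCODE M21 (mm10). Fold changes on this scale understate the change of low genes.

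The members, the 16 gene lists and the alternatives were chosen with earlier results of these data known. Genes named were Ctnnb1, the 10 members, up to 4 called genes per list by smallest p (or the 2 with the highest mean where none was called; some called genes are not reported here) and the 12 most alike in pattern; P2ry12, Tmem119, Fcrls, Ptprc, Itgam, Adgre1, Irf8, Ikzf1, Spi1, Csf1, Il34, Cx3cl1, Mrc1, F13a1, Nkx2-1, C1s1, C1ra, C4b, C3, Tnf and Il1b were added after their values were seen. The fit without control replicate 1 and knockout replicate 5 and the 2 motifs were also chosen after seeing the data.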

Additional observations from a re-analysis of the deposited data

Results flagged for a closer look

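Of 94 groups of 4 or 5 libraries examined, 14 had a highest or lowest library farther from the others than Dixon's 95% critical value. Chance flags about 1 in 20 of independent groups. These groups share the same libraries, and some sums contain genes also examined singly, so that rate gives no expected count here. Control replicate 1 and knockout replicate 5 account for all 14. The summed level of the 10 microglial genes was 567 in control replicate 1, against 369 to 390 in the other controls, and 483 in knockout replicate 5, against 253 to 299. C1qb was at 93.7 in knockout replicate 5, against 32.6 to 48.8. The border-associated macrophage markers summed to 671 in control replicate 1 and 746 in knockout replicate 5, and Stab1 was at 301.2 in the latter. The meningeal and mesenchymal markers summed to 3540 in knockout replicate 5, where Col3a1 was at 1055 and Col1a2 at 1056.

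In control replicate 1 the cortical and choroid plexus markers summed to 5368, with Ttr at 2691 and Reln at 501, the pericyte markers were low at 1575 against 1943 to 1993, and Cd63 was at 164 against 106 to 112.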

How the results depend on the processing

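The number of microglial genes lower in knockout is given here with the share of all genes lower in the same fit. It was 1 with all libraries (17.3%), 2 with no filter on low values (7.28%), 0 with a minimum mean of 50 (21.0%; 3 genes tested, Ctss not among them), 2 for limma without trend and robust (15.3%), and 3 without control replicate 1 and knockout replicate 5 (13.1%). It ranged from 1 to 5 when single libraries were left out: 2 without control replicate 2 (C1qa added; 16.5%), 2 without control replicate 3 (Cx3cr1 added; 14.8%) and 5 without knockout replicate 5 (14.8%). Knockout replicate 5 was the highest knockout for all 5 of those genes, so that count was favoured in advance. None was higher in any fit. With the replicate number as a block, 4 were lower, Ctss, Csf1r, C1qb and Cx3cr1 (12.2% of all genes). Knockout replicate 5 has no partner in that block, so its estimates equal those without that library. Same-numbered libraries did not deviate together more than others (correlations -0.12, -0.09, 0.14 and -0.04, against -0.21 to 0.31 for other pairs). Such values cannot show whether they share a litter or a batch.

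Counts over all genes were 2380 lower and 2369 higher. Against control replicates 2 and 3 alone they were 1112 and 1387. Of 25 tested homeostatic and macrophage or leukocyte genes, 3 were lower (17.3% of all genes were), and 3 to 5 with single libraries left out, the 5 without knockout replicate 4. Tyrobp ranged from -0.30 to 0.14 (log2 fold change) with single libraries left out and was 0.15 against control replicates 2 and 3. Fcer1g ranged from -0.17 to 0.41 and was -0.17 with the block, and Trem2 ranged from -0.050 to 0.33. The causes were not tested. Ctss kept its direction and call in 18 of 18 fits that tested it. Counts of 2 to 118 per library limit what small differences could be seen.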
